A study of Mus musculus with 3 samples.

Results

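Ephrins, semaphorins, slits and netrins are ligands that steer migrating cells and growing axons, and the genes examined here encode these ligands together with their main receptors. They were taken from the array table by gene symbol, as the symbols that start with Eph, Efn, Sema, Plxn, Nrp, Slit, Robo, Ntn or Unc5 and follow the pattern of these families, which gave 64 of its 30854 gene symbols. Of these, 31 encode ligands (8 ephrins, 19 semaphorins, 3 slits and a netrin) and 33 encode receptors (14 Eph receptors, 9 plexins, 2 neuropilins, 4 Robo receptors and 4 Unc5 receptors). *Ntn1* and *Sema3d* did not match a symbol of the table, and *Ntn3* and *Ntn5* have rows under the older symbols Ntn2l and Gm484, which do not follow the pattern, so these 4 genes were not analysed here. RNA came from the embryonic region of wild-type Cd-1 mouse embryos at the early headfold (EHF) stage, with no transgene, mutation or treatment named, and was hybridized to 3 Illumina bead arrays labelled replicates 1, 2 and 3. The arrays form a single group, so no comparison between genotypes, stages or tissues can be made from them. The sources do not settle whether an array holds a single embryo or a pool. P-values for gene levels rest on the spread between these 3 samples, moderated by the spread of all symbols, and cover no variation beyond these samples.

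Eph receptors are receptor tyrosine kinases that bind ephrins on neighbouring cells. Ephrin-A ligands are held in the membrane by a GPI anchor and ephrin-B ligands by a transmembrane segment, and both cells of a contact can receive a signal, which commonly leads to repulsion and to the sorting of cells at tissue boundaries. Semaphorins signal through plexins, and most secreted class 3 semaphorins first bind a neuropilin, which also serves as a co-receptor for vascular endothelial growth factor. Slits are secreted ligands of Robo receptors, and netrins attract through *Dcc* and neogenin or repel through Unc5 receptors. The same systems act during gastrulation and early vessel formation, largely before neurons form.

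A gene was called detected on an array where its detection p was under 0.01. For a gene with a single probe this p is the share of negative-control probes at least as bright, and for a gene with several probes it is a value combined over them. On all 3 arrays, 8 of the 64 genes (12.5%) were detected, against 20.6% of all symbols. These were the ephrin ligand genes *Efna4* and *Efnb1*, the Eph receptor genes *Epha1* and *Ephb4*, the semaphorin gene *Sema4a*, and the receptor genes *Plxnb2*, *Nrp1* and *Unc5b*. On at least 1 array, 21 genes (32.8%) were detected, against 33.0% of all symbols. A second measure asked whether the mean level of a gene over the arrays exceeded a background level, the lowest level among detected genes with a single probe, by the one-sided test of limma with adjustment over all symbols. By this measure 17 genes (26.6%) lay above background, against 25.8% of all symbols. The 17 held all 8 genes detected on every array and, in addition, *Efna5*, *Ephb1*, *Sema3f*, *Sema4b*, *Sema5a*, *Sema6a*, *Plxna2*, *Robo1* and *Unc5c*. Another 7 genes failed this test and passed the detection threshold on 1 or 2 arrays only. The other 40 genes, which passed neither the test nor the detection threshold on any array, had mean signals between 6.39 and 6.72, near the background levels of the arrays (6.69, 6.66 and 6.58 on replicates 1, 2 and 3). Counts by either measure were thus close to or below those over all symbols. The share above background by limma differed with the number of probes, which was inferred as described below. Among genes with a single probe it was 16% (4 of 25), against 20.4% of all such symbols. Among genes with several probes it was 33.3% (13 of 39), against 39.2% of all such symbols.

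**Figure D1:**
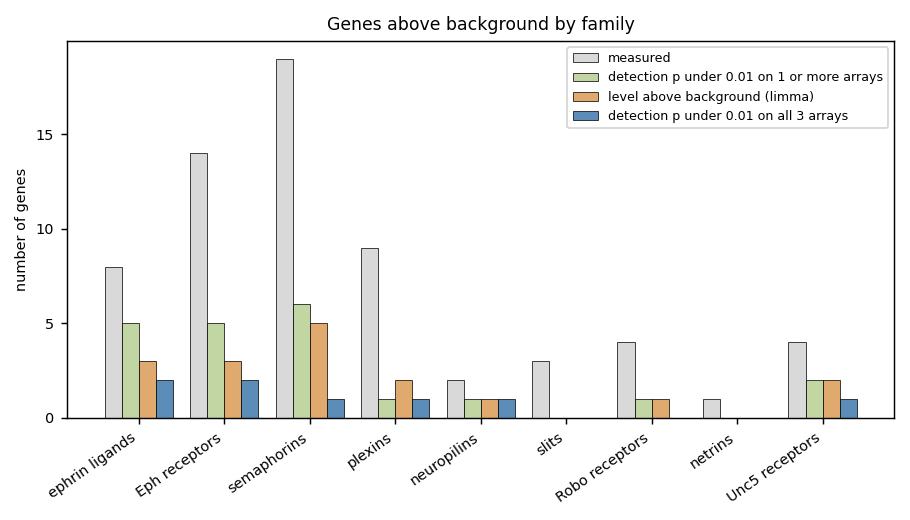
Number of genes (y axis) measured, detected on 1 or more arrays, above background by limma and detected on all 3 arrays, for each family (x axis). Semaphorins have 19 genes measured and 1 detected on all arrays, while the 3 slit genes and the netrin gene have none above background by any of the 3 rules drawn.

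**Figure D2:**
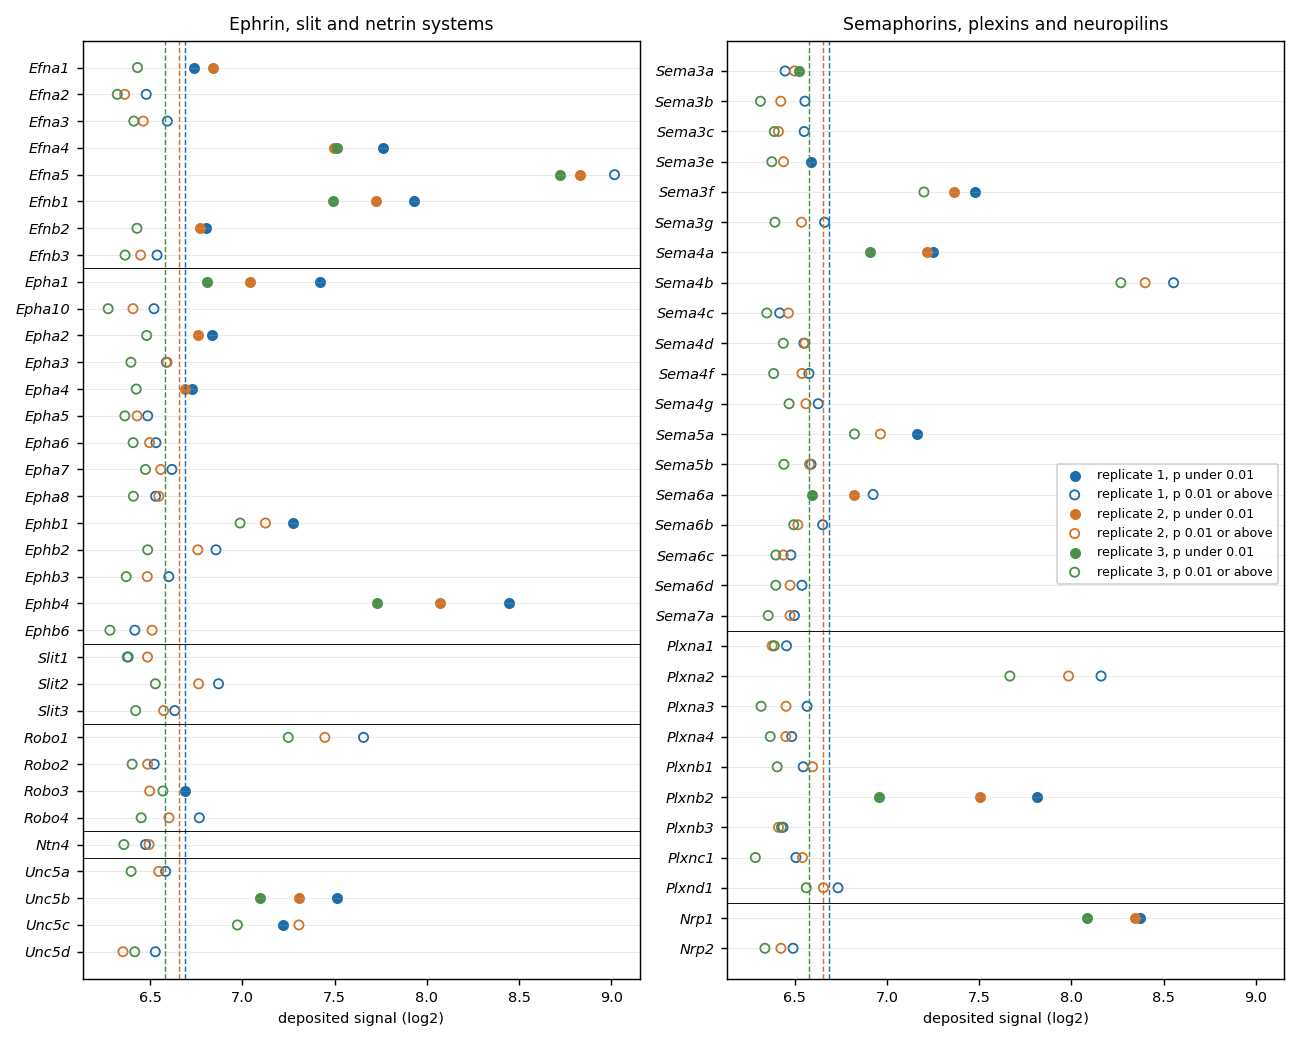
Deposited log2 signal (x axis) of each of the 64 genes (y axis) on the 3 arrays, where filled circles mark a detection p under 0.01 and dashed lines mark the background level of the array of the same colour. Most genes lie at or left of these lines, and *Plxna2*, *Robo1* and *Sema4b* lie well to their right with open circles on every array.

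Among the ephrin ligands, 2 of 8 genes were detected on all arrays and 3 exceeded background by limma. *Efna4*, which encodes a GPI-anchored ligand, gave deposited log2 signals of 7.76, 7.50 and 7.51 on replicates 1, 2 and 3, with a detection p listed as 0 on each. Its level, on the log2 scale after background correction and quantile normalization, lay 2.06 ± 0.28 above background (SD, n = 3; SE 0.12, limma adjusted p = 8.96e-05). All of its values were thus above background on every array, with replicate 1 the highest before normalization and replicate 3 after it. *Efnb1*, a transmembrane ligand of EphB receptors, gave signals of 7.93, 7.73 and 7.49 with a detection p listed as 0 on each array. The level of *Efnb1* was 2.25 ± 0.08 above background (SD, n = 3; SE 0.05, limma adjusted p = 3.70e-06), so its spread over arrays was small beside its height above background. *Efna5*, another GPI-anchored ligand, gave signals of 9.02, 8.83 and 8.72, and its level was 3.76 ± 0.22 above background (SD, n = 3; SE 0.10, limma adjusted p = 4.88e-06). Its detection p was nevertheless 0.0107 on replicate 1, where its signal was highest, against 2.05e-05 and 0.000548 on replicates 2 and 3.

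*Efna1* and *Efnb2* passed the detection threshold on replicates 1 and 2 only. *Efna1*, the ligand of *Epha2* among others, gave signals of 6.74, 6.84 and 6.43 with detection p of 0.00534, 0.00107 and 0.233. *Efnb2*, the ligand of *Ephb4* known from arterial endothelium, gave signals of 6.80, 6.77 and 6.43 with detection p of 0.00214, 0.00107 and 0.247. Replicate 3 was the low array for both genes, and neither exceeded background by limma. *Efna2*, *Efna3* and *Efnb3* were detected on no array, with mean signals between 6.39 and 6.49.

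Of the 14 Eph receptor genes, 2 were detected on all arrays, 3 more on some arrays and 9 on none. *Ephb4*, the receptor of ephrin-B2 known from venous endothelium, gave signals of 8.44, 8.07 and 7.73 with detection p of 2.03e-10, 2.47e-06 and 0.00205. Its level was 2.77 ± 0.13 above background (SD, n = 3; SE 0.07, limma adjusted p = 3.84e-06). Its signal was highest on replicate 1, and all 3 values stood clear of the background level. *Epha1* gave signals of 7.42, 7.04 and 6.81 with detection p of 0.000338, 0.00272 and 0.000680. The level of *Epha1* was 1.12 ± 0.25 above background (SD, n = 3; SE 0.11, limma adjusted p = 0.000679), with replicate 1 at 1.41 and the other arrays at 0.98 and 0.97. With a stricter detection threshold of 0.001, *Epha1* and *Ephb4* were no longer detected on all arrays and the count of detected genes fell from 8 to 6. *Ephb1*, a receptor studied in the crossing of retinal axons, gave signals of 7.28, 7.13 and 6.99 and passed the detection threshold on replicate 1 only (p of 0.00452, 0.0150 and 0.281). The level of *Ephb1* was 1.25 ± 0.15 above background (SD, n = 3; SE 0.07, limma adjusted p = 0.000105).

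*Epha2* and *Epha4* were detected on replicates 1 and 2 only. *Epha2*, a receptor of ephrin-A1, gave signals of 6.83, 6.76 and 6.48 with detection p of 0.00107, 0.00107 and 0.0951. *Epha4*, which binds ephrins of both classes and is known from the segments of the hindbrain, gave signals of 6.73, 6.69 and 6.42 with detection p of 0.00534, 0.00427 and 0.265. Again replicate 3 was low, and neither gene exceeded background by limma. *Epha3*, *Epha5*, *Epha6*, *Epha7*, *Epha8*, *Epha10*, *Ephb2*, *Ephb3* and *Ephb6* were detected on no array, and their mean signals ran from 6.40 to 6.70. Set side by side, the receptor gene *Ephb4* was detected on 3 arrays and its ligand gene *Efnb2* on 2, while *Epha2* and *Efna1* passed on the same 2 arrays. *Efnb2*, *Epha2* and *Efna1* did not exceed background by limma. Over all symbols, 1070 of 7427 detected on replicates 1 and 2 were likewise not detected on replicate 3.

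**Figure D3:**
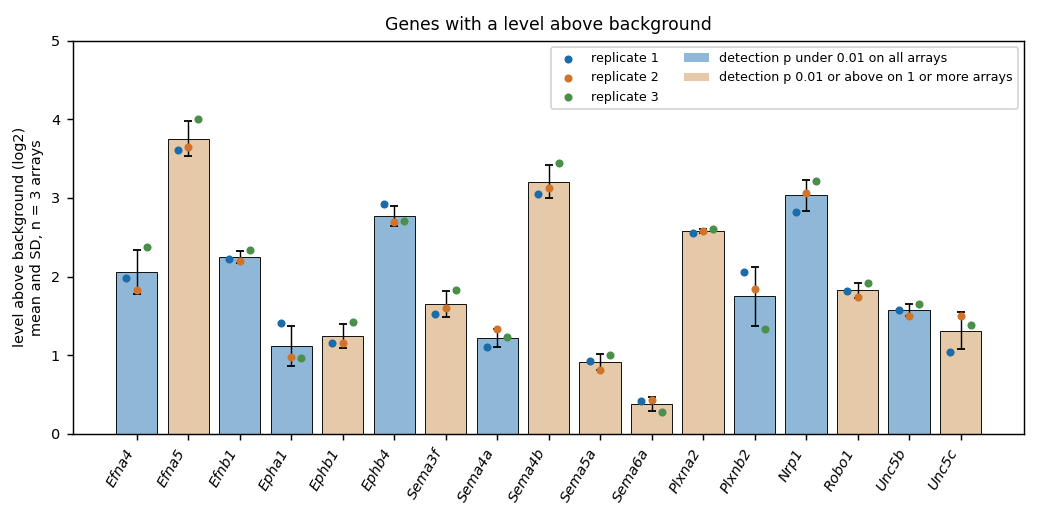
Level above background on the log2 scale after normalization (y axis) of the 17 genes that passed the limma test (x axis), as mean bars with SD over 3 arrays and a point for each array; bar colour marks whether the detection p was under 0.01 on all arrays. Every point lies above 0, from 0.28 for *Sema6a* on replicate 3 to 4.01 for *Efna5* on replicate 3, and heights of different genes are not comparable because each gene has its own probes.

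Semaphorins, the largest family with 19 genes, had a single gene detected on all arrays and 5 above background by limma. *Sema4a*, a transmembrane ligand of B and D plexins, gave signals of 7.25, 7.22 and 6.91 with a detection p listed as 0 on each array. The level of *Sema4a* was 1.22 ± 0.12 above background (SD, n = 3; SE 0.06, limma adjusted p = 6.05e-05). *Sema4b*, a transmembrane semaphorin of the same class, gave signals of 8.55, 8.40 and 8.27 but detection p of 0.217, 0.0284 and 0.193. Its level was 3.21 ± 0.21 above background (SD, n = 3; SE 0.09, limma adjusted p = 7.62e-06), so a gene detected on no array passed the test of its mean level. *Sema3f*, a secreted ligand that binds mainly neuropilin 2, gave signals of 7.48, 7.37 and 7.20 and was detected on replicates 1 and 2 (p of 0.00295, 0.000700 and 0.104). The level of *Sema3f* was 1.65 ± 0.16 above background (SD, n = 3; SE 0.08, limma adjusted p = 4.30e-05). *Sema5a*, a transmembrane semaphorin with thrombospondin repeats, gave signals of 7.16, 6.96 and 6.82, passed on replicate 1 only, and lay 0.92 ± 0.10 above background (SD, n = 3; SE 0.06, limma adjusted p = 0.000139).

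*Sema6a*, a transmembrane ligand of A-class plexins, gave signals of 6.93, 6.82 and 6.60 and was detected on replicates 2 and 3 (p of 0.0126, 0.00396 and 0.00243). Its level was 0.38 ± 0.09 above background (SD, n = 3; SE 0.06, limma adjusted p = 0.00367), and this call was lost when the deposited signals were tested without normalization (adjusted p = 0.117), with median scaling (0.105) and without replicate 1 (0.0738). *Sema3e*, the ligand of plexin D1, passed on replicate 1 alone with signals of 6.59, 6.44 and 6.38. *Sema3a*, which collapses growth cones through neuropilin 1, passed on replicate 3 alone with signals of 6.45, 6.50 and 6.52. The signals of both genes were below the background level of each array on which they passed, and both have several probes. *Sema3b*, *Sema3c*, *Sema3g*, *Sema4c*, *Sema4d*, *Sema4f*, *Sema4g*, *Sema5b*, *Sema6b*, *Sema6c*, *Sema6d* and *Sema7a* were detected on no array, with mean signals from 6.41 to 6.55. By class, limma placed 1 of 6 genes of class 3, 2 of 6 of class 4, 1 of 2 of class 5, 1 of 4 of class 6 and the class 7 gene not at all above background.

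Of the semaphorin receptors, *Nrp1* and *Plxnb2* were detected on all arrays and *Plxna2* exceeded background by limma. *Nrp1* gave signals of 8.37, 8.34 and 8.08 with a detection p listed as 0 on each array. Its level was 3.03 ± 0.20 above background (SD, n = 3; SE 0.09, limma adjusted p = 7.47e-06), with every array well above background. *Nrp2*, the partner of *Sema3f*, was not detected on any array, with signals of 6.49, 6.42 and 6.34 and detection p between 0.703 and 0.915. *Plxnb2*, a receptor of class 4 semaphorins known for its part in neural tube closure, gave signals of 7.81, 7.50 and 6.95 with a detection p listed as 0 on each array. The level of *Plxnb2* was 1.75 ± 0.37 above background (SD, n = 3; SE 0.15, limma adjusted p = 0.000458), the widest SD among the 17 genes both here and on the deposited scale. After each array was centred on its median, replicate 1 exceeded replicate 3 by 0.71 on the log2 scale for *Plxnb2*.

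*Plxna2*, which pairs with neuropilins and also binds *Sema6a* directly, gave signals of 8.16, 7.98 and 7.67 but detection p of 0.120, 0.353 and 0.377. Its level was 2.58 ± 0.03 above background (SD, n = 3; SE 0.05, limma adjusted p = 1.62e-06). After normalization this was the narrowest SD of the 17 genes, whereas the SD of its deposited signals was 0.25, and no array passed the detection threshold. *Plxnd1*, the receptor of *Sema3e*, had signals of 6.73, 6.66 and 6.56 with detection p of 0.0240, 0.0208 and 0.0521, and did not exceed background by limma. *Plxna1*, *Plxna3*, *Plxna4*, *Plxnb1*, *Plxnb3* and *Plxnc1* were detected on no array.

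None of the 3 slit genes was detected on any array. *Slit1* had signals of 6.38, 6.49 and 6.38, and *Slit3* had signals of 6.63, 6.57 and 6.42. *Slit2* had signals of 6.87, 6.76 and 6.53, above the background level on replicates 1 and 2 and below it on replicate 3, with a level of 0.18 ± 0.18 (SD, n = 3; limma adjusted p = 0.155). *Robo1*, a receptor of slits on commissural axons, gave signals of 7.66, 7.45 and 7.25 with detection p of 0.0572, 0.109 and 0.336. Its level was 1.83 ± 0.09 above background (SD, n = 3; SE 0.06, limma adjusted p = 9.43e-06). *Robo3*, a divergent receptor needed for axons to cross the midline, passed on replicate 1 alone with signals of 6.69, 6.50 and 6.57 and a detection p of 0.00962 on that array. *Robo2* and the endothelial receptor gene *Robo4* were detected on no array.

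*Ntn4*, which encodes a laminin-related netrin, was the only netrin gene analysed and was not detected, with signals of 6.48, 6.49 and 6.36 and detection p of 0.681, 0.469 and 0.719. *Unc5b*, a netrin receptor also known from endothelial tip cells, gave signals of 7.51, 7.31 and 7.10 with a detection p listed as 0 on each array. Its level was 1.58 ± 0.08 above background (SD, n = 3; SE 0.05, limma adjusted p = 1.29e-05). *Unc5c*, a receptor for the repulsive response to netrin, gave signals of 7.22, 7.31 and 6.97 and passed the detection threshold on replicate 1 only (p of 0.00353, 0.0793 and 0.123). The level of *Unc5c* was 1.31 ± 0.23 above background (SD, n = 3; SE 0.10, limma adjusted p = 0.000292), with replicate 1 at 1.05 below the other arrays at 1.50 and 1.39. *Unc5a* and *Unc5d* were detected on no array.

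The heights above background depend on the background correction. Without it, and with quantile normalization alone, the levels of the 17 genes ran from 0.12 for *Sema6a* to 2.20 for *Efna5*, against 0.38 to 3.76 with it, and all 17 still passed the test. With only symbols that had a detection p under 0.05 on some array, *Plxna2* and *Robo1* were not tested and 15 genes passed.

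The 9 genes above background by limma but not detected on every array all have several probes per symbol. Probe numbers were inferred from the values, and 25 of the 64 genes had a single probe and 39 had several. For 35 of the 39 the number followed from the mean bead numbers. For these the deposited detection p behaved as the tail probability of a sum of probe p-values, as all 105 values gave a whole number of steps of 1 in 936, within 0.05 of a step. That probability was taken exactly for 2 or 3 probes and by a normal approximation to the sum for 4 or more. For the other 4, *Plxna2*, *Nrp2*, *Plxnc1* and *Sema3a*, the bead numbers gave no number of probes above 1, and the number was chosen as the smallest for which the detection p gave whole steps. All 4 single-probe genes above background by limma were detected on every array. Over all symbols, 63 of 4481 single-probe symbols above background by limma were not. The background level is itself taken from detected single-probe symbols, so a close match of both measures is built in for them. Among genes with several probes, 13 had a mean signal that cleared the background level of each array, and 9 of these (69.2%) were not detected on all arrays, against 1844 of 3533 (52.2%) of all symbols with several probes. A mean signal above background requires at least 1 probe above it, so under the inferred rule the sum over 2 probes approximates the p-value of the dimmer probe. No value of a single probe was used here.

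For *Sema4b*, with 2 probes, this sum was 0.659, 0.238 and 0.622 on replicates 1, 2 and 3. For *Plxna2*, if it has 2 probes, it was 0.490, 0.840 and 0.869. *Ephb1* had sums of 0.0951, 0.173 and 0.750, and *Efna5* had sums of 0.146, 0.00640 and 0.0331. Of the 4 genes with several probes that were detected on all arrays, *Efna4* and *Nrp1* had a sum of 0 on every array. *Ephb4*, with 3 probes, had sums of 0.00107, 0.0246 and 0.231, and *Epha1*, with 4 probes, had sums of 0.0374, 0.395 and 0.151. *Robo1*, with 4 probes, had sums of 1.09, 1.29 and 1.76, and *Unc5c*, with 4 probes, had sums of 0.444, 1.19 and 1.33. Which transcripts each probe measures could not be examined, because probe sequences were not used here, and the part of splice forms or failed probes in these differences was not tested.

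**Figure D4:**
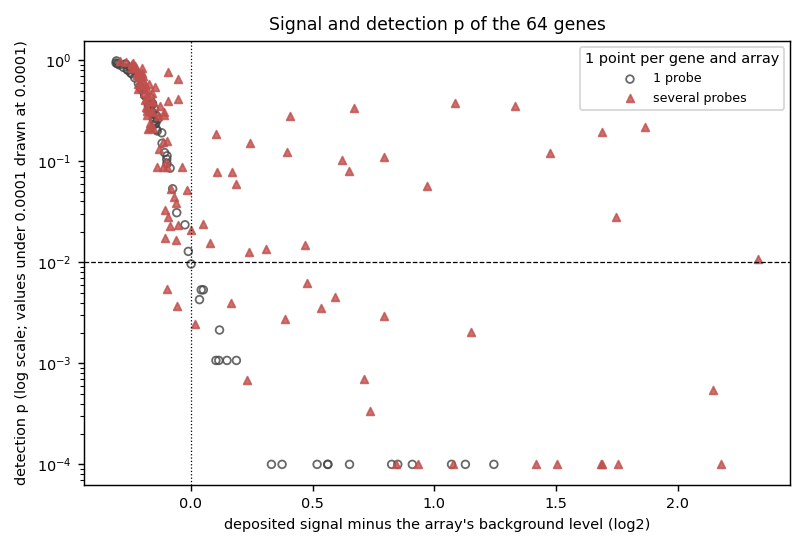
Detection p (y axis, log scale, values under 0.0001 drawn at 0.0001) against the deposited log2 signal minus the background level of the array (x axis), with a point for each of the 64 genes on each array. Open circles, genes with a single probe, fall close to a common curve. It crosses 0.01 at the background level by definition, because that level is the dimmest detected single-probe symbol. Triangles, genes with several probes, reach well to the right of the curve, as with the p of 0.377 of *Plxna2* on replicate 3.

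The arrays did not weigh equally in the calls. Of the 64 genes, 18, 15 and 11 were detected on replicates 1, 2 and 3, and over all symbols the numbers were 9015, 8220 and 7191. Of 13 genes detected on replicates 1 and 2, 5 (38.5%) were not detected on replicate 3, namely *Efna1*, *Efnb2*, *Epha2*, *Epha4* and *Sema3f*, against 1070 of 7427 (14.4%) over all symbols. Without replicate 3, these 5 genes joined the detected genes, whose number rose from 8 to 13. Among genes with a single probe, for which the call rests on brightness alone, 4 of 8 (50%) were lost on replicate 3, against 651 of 5229 (12.4%). These 4, *Efna1*, *Efnb2*, *Epha2* and *Epha4*, had signals from 6.69 to 6.84 on replicates 1 and 2, near the background levels of 6.69 and 6.66. The shares over all symbols were not matched on signal, so they do not show a loss particular to guidance genes. Leaving out replicate 3 also brought *Efnb2*, *Epha2*, *Ephb2* and *Slit2* above background by limma, giving 21 genes in place of 17, while over all symbols the number went from 7957 to 8505. Markers of visceral endoderm, of which 13 of 14 were detected on all arrays, had a summed linear signal of 15279, 16322 and 7836 on replicates 1, 2 and 3. The sums were lowest on replicate 3 for every other list too, as for markers of the embryonic region (5661, 4299 and 3490) and of extraembryonic ectoderm and trophoblast (3783, 3557 and 2328). The partners and effectors described below gave 17790, 15167 and 12660. With deposited signals centred on the array median, 5.84% of all symbols above background were higher on replicate 3 than on average over replicates 1 and 2. The size of the fall differed between lists, and markers of endothelium and primitive blood gave sums of 2299, 2199.7 and 2169. The part of tissue composition in the lower calls on replicate 3 was not tested.

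The direction of the array difference depended on the scaling. With deposited signals centred on the array median, 16 of the 17 genes above background (94.1%) had a higher signal on replicate 1 than on average over replicates 2 and 3, against 93.8% of all symbols above background, and 1 of 17 had a higher signal on replicate 3 than on average over replicates 1 and 2. After quantile normalization, 6 of 17 were higher on replicate 1 and 13 of 17 on replicate 3, against 48.8% and 53.8% of all symbols above background, with a median difference for replicate 3 of 0.13, against 0.03 for all symbols above background. The median SD over arrays of the 17 genes was 0.15 on the log2 scale, against 0.17 for all symbols above background.

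Partners and effectors of the 4 systems that are not themselves guidance ligands or their named receptors were taken from 5 lists. Of 68 measured, 25 (36.8%) were detected on all arrays and 35 (51.5%) exceeded background by limma, against 20.6% and 25.8% of all symbols. The lists were chosen by hand with earlier results of these data known, and the shares were not matched on the number of probes. The higher shares are thus no independent result about these genes. Among the netrin, repulsive guidance and FLRT partners, 2 of 12 were detected on all arrays and 3 exceeded background by limma. *Flrt3*, an adhesion protein that binds Unc5 receptors, gave signals of 9.47 on replicate 1 and 8.28 on replicate 3, with replicate 2 between them, and *Rgma*, a ligand of neogenin, gave 8.38, 7.83 and 7.29 on replicates 1, 2 and 3. Both were detected on every array and lowest on replicate 3. *Neo1*, which encodes neogenin, gave signals of 7.33, 7.40 and 6.87 with detection p of 0.000748, 0.000617 and 0.0116, and its level was 1.35 above background (SE 0.12, limma adjusted p = 0.000437). *Dcc*, the attractive netrin receptor, was not detected, with signals of 6.54, 6.45 and 6.37.

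Of 20 ephrin and Eph effectors, 5 were detected on all arrays and 11 exceeded background by limma. Those named by the highest mean signal were *Rasa1*, a Ras GTPase-activating protein with signals from 9.53 to 10.15, *Inppl1*, a lipid phosphatase with signals from 9.15 to 9.73, and *Tiam1*, a Rac exchange factor with signals from 8.73 to 9.07. Of 19 semaphorin and plexin effectors, 10 were detected and 11 exceeded background. *Arhgef11*, an exchange factor bound by B plexins, had signals from 7.96 to 8.30, the GTPase gene *Rac1* from 8.02 to 8.20 and *Dpysl5*, of the collapsin response mediator family, from 7.79 to 8.42. Of 10 slit and Robo effectors, 3 were detected and 4 exceeded background. *Gpc1*, a heparan sulfate proteoglycan that binds slits, had signals from 10.29 to 11.21, while *D15Wsu169e* (now *Arhgap39*) had signals from 7.04 to 7.37 and the actin regulator *Evl* from 6.96 to 7.11. Of 7 netrin, *Dcc* and Unc5 effectors, 5 were detected and 6 exceeded background, with *Maged1* from 10.30 to 10.94, the focal adhesion kinase gene *Ptk2* from 9.29 to 10.03 and the exchange factor gene *Trio* from 8.11 to 8.67. Many of these effectors also serve other pathways.

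Markers of the tissues that such samples can hold were read on the same arrays. Of 14 markers of visceral endoderm, 13 were detected on all arrays and 13 exceeded background by limma. Mean signals were 11.45 for *Spink3*, 11.42 for *Apoa1*, 10.99 for *Ttr* and 10.91 for *Amn*, while *Afp* passed on replicates 1 and 2 only. Of 13 markers of the embryonic region, 7 were detected on all arrays (*T*, *Mixl1*, *Mesp1*, *Otx2*, *Tbx6*, *Fgf8* and *Pou3f1*). Of these, *Mixl1* did not exceed background by limma (level of 0.56, adjusted p = 0.0952). *Sox2* passed on replicates 1 and 2 and *Six3* on replicate 1, while *Sox1*, *Sox11*, *Hesx1* and *Mesp2* were detected on no array, though *Sox2* and *Sox11* exceeded background by limma. Extraembryonic ectoderm and trophoblast markers were detected in 5 of 14 cases (*Cdx2*, *Bmp4*, *Rhox5*, *Ets2* and *Tcfap2c*, now *Tfap2c*). *Hand1* passed on replicates 1 and 2 only, and *Elf5*, *Eomes*, *Ascl2*, *Gcm1*, *Esx1*, *Prl3d1*, *Prl2c2* and *Tpbpa* were detected on no array. Of 13 endothelial and primitive blood markers, 3 were detected on all arrays (*Tal1*, *Lmo2* and *Etsrp71*, now *Etv2*), with a summed linear signal of 2299, 2199.7 and 2169 on replicates 1, 2 and 3. Of the endothelial receptors and adhesion proteins among them, *Pecam1*, *Cdh5* and *Tie1* were detected on no array, *Kdr* on replicate 1 only, and *Tek* on replicates 1 and 2 with a level above background (0.21, limma adjusted p = 0.0403), beside the detection of *Ephb4*, *Nrp1* and *Unc5b* on all arrays. *Gata1*, *Runx1*, *Hbb-bh1*, *Hba-x* and *Hbb-y* of the same list were detected on no array. Neural crest markers were detected in 2 of 8 cases (*Snai2* and *Sox9*). By limma 5 of the 8 exceeded background, with *Tcfap2a*, *Snai1* and *Ets1* in addition. Neuronal markers were detected in 3 of 12 cases (*Stmn2*, *Isl1* and *Gap43*), and *Neurog1* passed on replicate 3 only. *Tubb3*, *Elavl3*, *Elavl4*, Map2, *Dcx*, *Neurog2*, *Snap25* and *Syt1* were detected on no array. In RNA from whole tissue, fewer cells of a type and less RNA per cell cannot be told apart. Which cells the RNA of a marker came from was not tested, so a detected marker does not show that its tissue was present.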

How the data were processed

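The 3 arrays were grouped by their labels, as replicates of a single group. The authors deposited, for each gene symbol, a log2 signal not normalized between arrays, the mean number of beads, the standard error over beads as an intensity on the linear scale (inferred from its values, and behind no value given here), and a detection p-value. Partek is the only tool named in the submitters' processing notes, with no version, and the normalization is not given in the sources used here. The labels name Cd-1 and a column kit, and the paper ICR and TRIzol. All per-sample columns were matched to a sample (0 were not).

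Members were taken by symbol, and the members and the gene lists were chosen with earlier results of these data known. All 64 members are current symbols of the RefSeq gene table. The number of probes was inferred as 1 where bead numbers were whole on all arrays and the detection p lay on steps of 1 in 936 (tolerance 0.002), which gave 21986 symbols with 1 probe, 8866 with several and 2 with no number. Detection was a detection p under 0.01 on all 3 arrays. For levels, the normexp background correction was fitted on single-probe symbols through their detection p, followed by an offset of 16, quantile normalization and log2. The background level was, per array, the dimmest single-probe symbol whose detection p was under 0.01 but not 0, averaged over arrays. It was 4.69, 4.81 and 5.06 on replicates 1, 2 and 3 before averaging. The average was treated as fixed, so this spread does not enter the SE or p-values of the main test. Level minus background was tested with limma 3.58.1 (lmFit with an intercept, eBayes, one-sided) under R 4.3.3 over 30854 symbols, at an adjusted p (Benjamini-Hochberg) of 0.05. On simulated data, the test recovered 0%, 77.5% and 97.5% of 200 symbols set 0.5, 1 and 2 above background, with 0 false calls. All other symbols were set 0.5 below background, so the simulation cannot show how often symbols at background are called. With so few symbols above background the adjustment is stricter than in the real table. Every member is reported, and those detected on all arrays are given in full. Pathway genes named are the 3 with the highest mean signal in each list among those called, and *Dcc*, *Neo1* and *Flrt3*. Alternatives were other detection thresholds, fewer arrays, other normalizations, background levels, offsets and filters, and leaving out each replicate. Other steps ran in Python 3.11.15 with scipy 1.17.1, numpy 2.4.6, pandas 2.3.3 and matplotlib 3.10.9. The number of arrays limits the precision of every level.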

Additional observations from a re-analysis of the deposited data

How the results depend on the processing

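The number of the 64 guidance genes detected rose from 8 to 15 when detection on at least 2 arrays sufficed and to 21 with at least 1 array, and the number of all symbols rose from 6357 to 7897 and 10172. Between 8 and 13 guidance genes were detected when each replicate was left out in turn, the 13 without replicate 3, and 16 to 21 lay above background by limma, against 17 with all arrays. Over the other alternatives, the count of guidance genes above background by limma was 15 to 17, and a detection threshold of 0.05 added *Efna5* and *Sema6a* to those detected. Of 168 level tests of the 17 genes under alternatives, 165 kept their direction and their side of the threshold, 3, all of *Sema6a*, no longer passed (levels of 0.14, 0.43 and 0.24 with deposited signals, median scaling and without replicate 1), and 0 reversed. The fit with a background level for each array gave each symbol the same standard error. No paired analysis was possible because the arrays form a single group. None of 200 simulated symbols at 0.5 above background was recovered, whereas *Sema6a* passed at 0.38 in the real table, where 7957 symbols were called and the adjustment is less strict. Genes not detected may still be expressed below the background of these arrays.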
